A study of Mus musculus with 24 samples.

Results

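The genes described here were 7 endoderm transcription factors, the GATA factors Gata4 and Gata6, the SoxF factors Sox7 and Sox17, the forkhead factors Foxa1 and Foxa2, and the nuclear receptor Hnf4a. They were picked by name from the 35591 genes of the count table, by a rule that sets no threshold on their values, and all 7 were present. Their expression was measured by poly(A) RNA sequencing in 24 libraries from 6 male mouse embryonic stem cell (mESC) lines, 3 Smchd1 fl/+ lines (wt) and 3 Smchd1 del/+ lines (het). Each line was sampled in the undifferentiated state (day 0) and on day 2, day 2.5 and day 3 of differentiation towards neuromesodermal progenitors (NMPs), the bipotent cells that supply spinal cord and trunk mesoderm, which gave 8 groups of 3 libraries. All lines came from Castaneus mothers with functional Smchd1 and fathers on the C57BL/6 background, and were thus hybrids of the 2 strains. The fathers carried a deleted and a floxed Smchd1 allele together with the MMTV-Cre transgene. Both genotypes had therefore developed from oocytes with normal SMCHD1, and the het lines lacked the paternal copy. Each line was a separate derivation from a blastocyst. Lines were first kept in medium with LIF and inhibitors, moved stepwise to serum medium with LIF before day 0, and then cultured without LIF in N2B27 medium with bFGF. The GSK3 inhibitor CHIR99021, which activates Wnt signalling, was added at day 2. The comparison of het with wt asked how expression changes when the cells themselves can make SMCHD1 from the maternal allele alone, while the oocyte's supply is intact.

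In the blastocyst, GATA6 and GATA4 specify primitive endoderm, the layer that forms the yolk sac endoderm, and forced expression of either factor can convert mESCs into extraembryonic endoderm-like cells. SOX17 and SOX7 act downstream in the same lineage, which then divides into visceral endoderm, where FOXA2 and HNF4A are active, and parietal endoderm, which lays down a thick basement membrane. SOX17, FOXA2 and GATA6 serve again in definitive endoderm, which arises from the anterior primitive streak, so that these genes alone do not tell the lineages apart. Cultures of mESCs are known to hold a few cells of primitive endoderm character.

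Library totals ranged from 7.10 to 20.8 M (mega) counts with a median of 17.9 M, and the smallest library was wt day 2.5 line 2. Levels are given as counts per M counts scaled by composition factors (CPM). Smchd1 itself, which takes part in gene silencing, was lower in every het library than in every wt library of the same day. Its mean het level was 66.3%, 59.9%, 66.0% and 54.7% of wt on the 4 days in turn. The cell labels were checked against marker lists. The summed level of 9 naive pluripotency genes fell from between 1260 and 1470 CPM at day 0 to between 116 and 223 CPM afterwards. That of 9 NMP genes lay between 49.2 and 92.7 CPM at day 2 and between 556 and 1370 CPM from day 2.5. At day 2.5, 8 of the 9 NMP genes were higher than at day 2 and Sox2 was lower, in both genotypes.

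All 7 factors were detected, but at very different levels. Per kb of merged exons, the mean level over the 24 libraries was 12.3 ± 6.42 CPM per kb for Gata4, 7.99 ± 3.99 for Sox7, 4.15 ± 2.04 for Gata6, 3.48 ± 2.36 for Sox17, 3.17 ± 2.55 for Foxa2, 0.569 ± 0.462 for Hnf4a and 0.0976 ± 0.103 for Foxa1 (SD over 24 libraries of 6 lines). Gata4 was above Sox7 in 22 of 24 libraries, Sox7 above Gata6 in 23, and Foxa2 above Hnf4a in all 24. The neighbours Gata6 and Sox17 were less clearly ordered, with Gata6 above Sox17 in 19 of 24 libraries, and so were Sox17 and Foxa2, with Sox17 above Foxa2 in 16. Gata4, Gata6, Sox17 and Foxa2 were at their lowest at day 0 in 6 of 6 lines. Gata6 peaked at day 2 in 4 of 6 lines, whereas Foxa2 peaked at day 3 in 5 of 6 lines, and Sox17 and Hnf4a in 4 of 6 lines each.

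**Figure D1:**
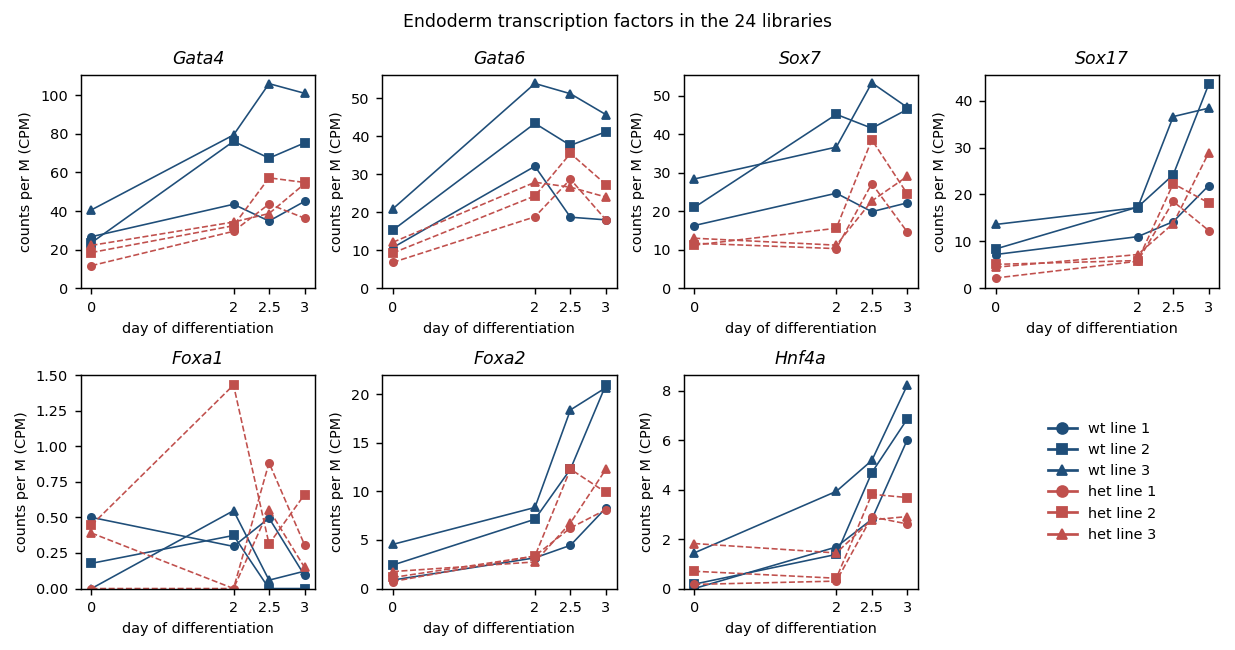
Level of each factor in CPM (vertical axes start at 0 and differ between panels) against day of differentiation in the 24 libraries, with 1 line per cell line, solid blue for wt and dashed red for het. Red lies below blue for Gata4, Gata6, Sox7 and Sox17 at day 2, and the genotypes overlapped for every factor at day 2.5.

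Gata4 (ENSMUSG00000021944, chromosome 14, 63198922 to 63271692, minus strand of GRCm38.p6, protein coding) encodes a zinc finger factor that can start the primitive endoderm programme. In wt it was at 26.7, 23.6 and 40.6 CPM in lines 1, 2 and 3 at day 0, and at 43.5, 76.1 and 79.4 CPM at day 2. In het it was at 11.7, 18.5 and 22.2 CPM at day 0, and at 29.5, 32.4 and 34.3 CPM at day 2. All 3 het lines were thus below all 3 wt lines on both days. Het against wt, the log2 fold change was -0.81 (SE 0.23, adjusted p 0.334) before differentiation and -1.06 (SE 0.18, adjusted p 0.017) on day 2, so that the day 2 difference passed the threshold of 0.05 and the day 0 difference did not. From day 0 to day 2 Gata4 rose in both genotypes, on the log2 scale by 1.14 (SE 0.23, adjusted p 0.00109) in wt and by 0.89 (SE 0.18, adjusted p 0.000729) in het.

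After Wnt activation the wt lines spread widely. Gata4 was at 34.8, 67.4 and 106 CPM in the wt lines and 43.6, 57.2 and 38.7 CPM in the het lines at day 2.5. At day 3 the wt lines stood at 45.0, 75.3 and 101 CPM and the het lines at 36.3, 54.8 and 54.1 CPM. Wt line 1 was below every het line at day 2.5 and within the het range at day 3, and wt lines 2 and 3 were above every het line on both days. Gata4 rose from day 2 to day 2.5 in het (log2 fold change 0.52, SE 0.15, adjusted p 0.00985). In wt the value was 0.06 (SE 0.31, adjusted p 0.902), with line 3 higher and lines 1 and 2 lower at day 2.5.

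Gata6 (ENSMUSG00000005836, chromosome 18, 11052064 to 11085635, plus strand, protein coding), the factor that acts first in primitive endoderm, was at 10.7, 15.3 and 20.9 CPM in the wt lines and 6.81, 9.28 and 12.1 CPM in the het lines at day 0. At day 2 it was at 32.1, 43.4 and 53.9 CPM in the former and 18.8, 24.3 and 27.9 CPM in the latter. The groups overlapped at day 0 and did not at day 2. The day 2 difference (log2 fold change -0.88, SE 0.19, adjusted p 0.0509) narrowly missed the threshold. Over the first step Gata6 rose by the same order in both genotypes, by 1.48 (SE 0.24, adjusted p 0.000176) in wt and 1.34 (SE 0.21, adjusted p 5.42e-05) in het, and the change was between 1.20 and 1.58 in each of the 6 lines. At day 2.5 it was at 18.7, 37.6 and 51.2 CPM in the wt lines, each lower than at day 2, and at 28.7, 35.5 and 26.6 CPM in the het lines, of which lines 1 and 2 were higher than at day 2. At day 3 it was at 18.0, 41.2 and 45.7 CPM in wt and 18.0, 27.3 and 24 CPM in het, and the lowest lines of the genotypes had the same level. The exons of Gata6 share 93 bases with the antisense transcript 1010001N08Rik, which had 0 to 57 counts a library. Since the labels allow for stranded and unstranded kits, reads over these bases cannot be assigned to a strand.

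Sox7 (ENSMUSG00000063060, chromosome 14, 63943673 to 63950732, plus strand, protein coding), an HMG-box factor of primitive and parietal endoderm that endothelium uses too, showed the largest difference between genotypes among the members that passed the threshold at day 2. It was at 24.7, 45.2 and 36.7 CPM in wt and at 10.3, 15.6 and 11.2 CPM in het on that day. The lowest wt line was above the highest het line, and the mean het level was 34.9% of wt. On the log2 scale the difference was -1.52 (SE 0.22, adjusted p 0.00971). At day 0 Sox7 was at 16.3, 21.0 and 28.4 CPM in wt and 11.7, 11.2 and 13.0 CPM in het, again without overlap (log2 fold change -0.88, SE 0.19, adjusted p 0.334). From day 0 to day 2 it rose in wt (0.71, SE 0.23, adjusted p 0.0224). In het the value was 0.06 (SE 0.19, adjusted p 0.813), and only het line 2 was higher at day 2.

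After Wnt activation Sox7 reached 27.2, 38.6 and 22.7 CPM in the het lines at day 2.5, against 19.9, 41.6 and 53.4 CPM in wt. It rose in all 3 het lines (log2 fold change 1.23, SE 0.21, adjusted p 0.000323), while the wt value was 0.10 (SE 0.30, adjusted p 0.829). The difference of these changes between genotypes was 1.14 (SE 0.41) with an unadjusted p of 0.0129, and it did not pass the threshold when adjusted over all genes (adjusted p 0.952). At day 3 Sox7 was at 22.2, 46.5 and 47.0 CPM in the wt lines and 14.6, 24.5 and 29.1 CPM in the het lines, and the groups overlapped.

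Sox17 (ENSMUSG00000025902, chromosome 1, 4490931 to 4497354, minus strand, protein coding), which serves primitive and definitive endoderm as well as endothelium, was at 7.19, 8.37 and 13.6 CPM in the wt lines and 2.18, 5.09 and 4.48 CPM in the het lines at day 0. At day 2 it was at 11.0, 17.3 and 17.2 CPM in wt and 5.76, 5.90 and 7.18 CPM in het. The het lines were below the wt lines on both days, with mean levels of 40.2% and 41.4% of wt. The difference passed the threshold on the later day (log2 fold change -1.28, SE 0.24, adjusted p 0.0225) and not on the earlier one (-1.33, SE 0.33, adjusted p 0.334). From day 2 to day 2.5 Sox17 rose in het to 18.5, 22.3 and 13.8 CPM (log2 fold change 1.52, SE 0.21, adjusted p 6.36e-05). In wt it was then at 14.2, 24.2 and 36.6 CPM (0.72, SE 0.30, adjusted p 0.0852), a change that passed with the line as a block (0.65, SE 0.20, adjusted p 0.0212). It reached its highest wt levels at day 3, with 21.9, 43.5 and 38.4 CPM, against 12.3, 18.2 and 28.9 CPM in het. An antisense transcript, Gm37587, shares 804 exon bases with Sox17, and 77.0% of the 75-base stretches of its longest transcript occurred in no other gene, against 100% for the other 6 factors. Gm37587 had 0 to 18 counts a library against 39 to 723 for Sox17.

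Foxa2 (ENSMUSG00000037025, chromosome 2, 148042877 to 148046969, minus strand, protein coding) encodes a forkhead factor that opens chromatin in visceral and definitive endoderm and in the node. Of the 7 factors, 3 had RefSeq promoter sequences in the table used (GRCm38.p6): Foxa2, Hnf4a and Foxa1. The 250 bases before the first start site of Foxa2, at chr2:148046970-148047219 on the minus strand, and before 1 of its internal start sites, at chr2:148045465-148045714, are shown because Foxa2 varied between libraries together with the GATA and SoxF factors. Capitals mark AGATAA, a form of the GATA motif. Neither stretch overlaps an annotated exon.

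Foxa2 first start site: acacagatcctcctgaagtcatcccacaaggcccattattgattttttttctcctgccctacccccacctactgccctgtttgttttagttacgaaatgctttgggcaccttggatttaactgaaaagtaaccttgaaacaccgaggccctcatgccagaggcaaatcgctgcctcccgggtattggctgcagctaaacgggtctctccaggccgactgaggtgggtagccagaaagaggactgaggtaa
Foxa2 internal start site: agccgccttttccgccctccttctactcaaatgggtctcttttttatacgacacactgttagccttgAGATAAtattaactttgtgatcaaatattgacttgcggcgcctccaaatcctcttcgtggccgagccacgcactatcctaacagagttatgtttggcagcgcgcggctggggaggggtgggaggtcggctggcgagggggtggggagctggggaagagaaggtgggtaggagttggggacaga

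Both strands were searched for the GATA motifs AGATAA and TGATAA, the SOX motifs ACAATG and AACAAT, the FOX motifs TGTTTAC and TGTTTGC, and the HNF4 motif AAAGTCC. The window before the first start site held none of them, and the internal one shown held AGATAA, 183 bases before the start. A further internal window of Foxa2, at chr2:148045949-148046198, held none and is not shown. Among 32817 RefSeq windows of the same length, 9.99% held AGATAA, 7.95% TGATAA, 10.7% ACAATG, 9.42% AACAAT, 3.16% TGTTTAC, 4.30% TGTTTGC and 3.59% AAAGTCC. A match describes these letters and not a bound site.

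Foxa2 was higher at day 3 than at day 0 in all 6 lines. In wt it was at 0.876, 2.42 and 4.55 CPM at day 0 and at 8.31, 21.0 and 20.7 CPM at day 3, with each line higher on each later day. In het it went from 0.725, 1.14 and 1.75 CPM to 8.13, 9.90 and 12.3 CPM, and the last step (0.24, SE 0.26, adjusted p 0.536) did not pass, with line 2 lower at day 3 than at day 2.5. At day 2 wt line 1, at 3.16 CPM, lay among the het lines at 3.36, 3.34 and 2.74 CPM, and wt lines 2 and 3 were at 7.14 and 8.35 CPM. The difference between genotypes on that day (log2 fold change -0.99, SE 0.38, adjusted p 0.362) did not pass. In het Foxa2 rose from day 0 to day 2 by 1.39 (SE 0.47, adjusted p 0.0198) and from day 2 to day 2.5 by 1.40 (SE 0.31, adjusted p 0.00212). In wt the same steps gave 1.27 (SE 0.52, adjusted p 0.0632) and 0.91 (SE 0.45, adjusted p 0.149), and both passed with the line as a block, at 1.40 (SE 0.39, adjusted p 0.0104) and 0.82 (SE 0.26, adjusted p 0.0269).

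Foxa1 (ENSMUSG00000035451, chromosome 12, 57540628 to 57546916, minus strand, protein coding), its close relative, was barely detected. It had 0 to 24 counts a library, none in 6 of 24 libraries and fewer than 3 counts in 9. Its level in the groups was between 0.0712 and 0.584 CPM, and it was left out of the tests by the filter on low counts except in the counts summed over days, the last step in het and 2 interactions. At day 3 it had 2, 0 and 2 counts in wt and 6, 14 and 3 in het. In the summed counts het against wt stood at 0.87 on the log2 scale (SE 0.55, adjusted p 0.686). Its only promoter window, before a start site within the gene, held TGTTTAC on the other strand, 141 bases before the start.

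Hnf4a (ENSMUSG00000017950, chromosome 2, 163506808 to 163572910, plus strand, protein coding), a nuclear receptor that drives the absorptive and secretory programme of visceral endoderm and had the lowest level of the 6 factors with enough counts to test. Of its RefSeq windows, the first held AGATAA (capitals), 52 bases before the start site, and the second held no motif searched. The first window is shown up to 20 bases into an annotated exon, at chr2:163506607-163506827 on the plus strand, because the line-to-line changes of Hnf4a followed those of the GATA factors least closely.

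Hnf4a first start site: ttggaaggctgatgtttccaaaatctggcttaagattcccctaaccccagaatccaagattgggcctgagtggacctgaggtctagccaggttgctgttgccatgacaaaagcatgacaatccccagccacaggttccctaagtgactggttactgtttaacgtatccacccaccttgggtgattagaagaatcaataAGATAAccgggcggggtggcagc

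At day 0 Hnf4a had 0, 3 and 20 counts in wt and 3, 11 and 28 in het. At day 2 it was at 1.68, 1.38 and 3.93 CPM in the wt lines and 0.300, 0.417 and 1.44 CPM in the het lines. It rose in het from day 2 to day 2.5, to 2.90, 3.81 and 2.78 CPM (log2 fold change 2.13, SE 0.59, adjusted p 0.00889). In wt it was at 2.80, 4.69 and 5.18 CPM at day 2.5 and at 6.02, 6.86 and 8.23 CPM at day 3, and the last step passed with the line as a block (0.78, SE 0.27, adjusted p 0.0368) and not without it (0.75, SE 0.30, adjusted p 0.108). In het it stayed at 2.61, 3.68 and 2.91 CPM at day 3, below all wt lines, and the mean het level was 43.6% of wt. This difference (log2 fold change -1.20, SE 0.25, adjusted p 0.229) did not pass over all genes.

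Set side by side by day, the mean het level was below wt for Gata4, Gata6, Sox7, Sox17 and Foxa2 on all 4 days and for Hnf4a on all but day 0. Single lines set the direction of some of these, since without wt line 3 the log2 fold changes of Gata6 and Foxa2 at day 2.5 were 0.15 and 0.09, and without het line 3 that of Hnf4a at day 0 was -0.30. For Foxa1 no direction over the 4 days is given, since its counts at day 2 were 6, 7 and 11 in wt and 0, 24 and 0 in het. In the edgeR quasi-likelihood test with the filter and without a block, differences of factors passed the threshold at day 2. At day 2, 3 of the 6 factors tested were called lower in het, namely Gata4, Sox7 and Sox17, where 0.551% of all 15414 genes tested were called, 0.5% lower and 0.0519% higher. All 6 had an unadjusted p under 0.05, against 10.2% of all genes. The median log2 fold change of the 6 was -1.17, and that of all genes was 0.00. All 3 het lines were below all 3 wt lines for 4 of the 7 factors, against 8.19% of all genes, and the exact permutation test of a single factor gave p = 0.1 for each of these, which is the smallest p that 3 lines against 3 allow. Among these 4, Gata6 was called by the other tools that were run, DESeq2 and the edgeR exact test, which called 4 factors each and 233 and 249 genes in all. Leaving out a line moved the count together with that over all genes, from 0 factors (8, 1 and 0 genes) without wt line 3, het line 1 and het line 3, 1 factor (3 genes) without het line 2 and 2 factors (137 genes) without wt line 2 to 4 factors (211 genes) without wt line 1, and it was 1 factor (23 genes) in a single fit of all 24 libraries. The log2 fold changes over these omissions were between -1.29 and -0.90 for Gata4, -1.74 and -1.32 for Sox7 and -1.47 and -1.18 for Sox17, and those of the 6 were below 0 throughout.

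At day 0, edgeR called 0 of 6 factors and 0 genes in all (0.0% of 15108), with 4 factors at an unadjusted p under 0.05 against 10.9% of all genes, and DESeq2 and the exact test called 1 each, Sox7, among 82 and 48 genes in all. Without wt line 1, edgeR called 2 factors among 35 genes. The median was -0.85, with 5 of 6 factors lower in het. Of the 7 factors, 3 had no overlap, with het lower, against 7.93% of all genes. At day 2.5, 0 of 6 were called (0.0% of 15588 genes) by edgeR, DESeq2 and the exact test, with 0 at an unadjusted p under 0.05, where 5.27% of all genes were. The 6 values were between -0.58 and -0.24 with a median of -0.43, and no factor was without overlap, against 5.22% of all genes with het lower and 6.49% with het higher. Leaving out each line in turn gave -0.92 to -0.11 for Gata4, -0.70 to -0.02 for Sox7 and -0.76 to -0.03 for Sox17 at day 2.5. At day 3, edgeR called 0 of 6, with 0.00638% of genes called (1 of 15686, Smchd1). Of the 6, 5 had an unadjusted p under 0.05, against 9.13% of all genes, and the median was -0.74. DESeq2 and the exact test called 1 factor each at day 3, Hnf4a, among 116 and 129 genes in all, and edgeR called 2 among 93 genes without wt line 1. On that day Hnf4a was without overlap and lower in het, against 5.87% of all genes. The het lines of Foxa1 were above its wt lines, against 8.06% of all genes, but its counts of 2, 0 and 2 in wt were below the floor of 3 counts. In het Foxa1 had 6, 14 and 3 counts, and no direction is taken from these.

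When the counts of the 4 days of each line were added, edgeR and DESeq2 called 0 of 7 factors, with 0.00544% of genes called (1 of 18371, Smchd1). The log2 fold changes were between -0.77 and -0.58 for the 6 factors other than Foxa1, and 5 of the 7 had an unadjusted p under 0.05, against 9.05% of all genes. Without wt line 1, 5 factors were called, and 404 genes in all. By another measure, the mean CPM of the 4 days of each line, Sox17 and Hnf4a were lower in het without overlap, Sox17 only narrowly. In the summed counts 6.66% of all genes were lower in het without overlap, which is not the same measure. Because the cultures were measured in bulk, fewer cells that express these genes and less RNA of them per cell cannot be told apart.

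**Figure D2:**
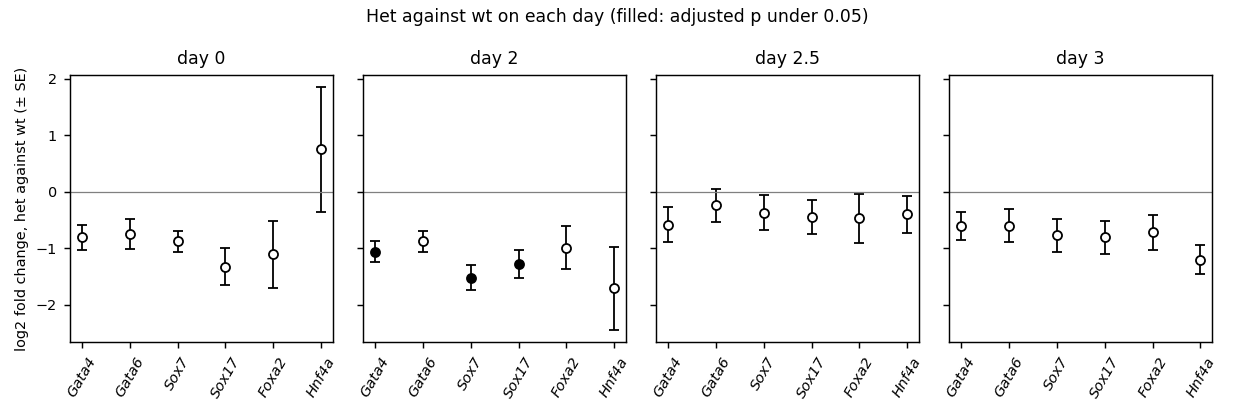
Log2 fold change of het against wt (points, with SE as bars, from 3 lines against 3) for the 6 factors with enough counts, on each day, with filled points where the adjusted p was under 0.05. Gata4, Sox7 and Sox17 are filled at day 2, and all points lie below 0 except that of Hnf4a at day 0.

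Over the steps of differentiation, Gata4 and Gata6 rose from day 0 to day 2 in both genotypes, and the other factors passed the test at different steps. LIF, serum, bFGF and seeding density changed together between these days, and their parts were not tested. From day 0 to day 2, 3 of 6 factors tested rose in wt (Gata4, Gata6 and Sox7) and 3 of 6 in het (Gata4, Gata6 and Foxa2), where 22.4% and 28.0% of all genes rose and 44.3% and 56.1% were called in either direction. At an unadjusted p under 0.05 there were 5 factors in wt and 4 in het, against 51.1% and 60.4% of all genes. With the line as a block, which pairs the days of a line, 6 of 6 rose in wt and 4 of 6 in het, where 44.5% and 56.6% of all genes were called. Without the block, the counts were 2 without wt line 2, wt line 3, het line 1 or het line 2, and 4 without wt line 1. Over all omissions of 1 line, the calls over all genes were between 4152 and 6363 in wt and between 6877 and 7757 in het. With all lines they were 6869 and 8582. The median log2 fold change was 1.20 in wt and 0.79 in het, against 0.02 and 0.01 over all genes. From day 2 to day 2.5, 5 of 6 factors rose in het, all but Gata6 (0.34, SE 0.16, adjusted p 0.107), against 21.8% of all genes that rose and 44.7% called in either direction, and the median was 1.32 against 0.01. In wt edgeR called 0 of 6, with 1 at an unadjusted p under 0.05 against 40.3% of all genes, DESeq2 and the exact test called 0, and 14.6% of all genes rose out of 29.1% called. With the block, 2 rose in wt, Sox17 and Foxa2, against 30.9% of all genes called. Without het line 1, 3 factors rose in het, without het line 2, 4, and without het line 3, 6, and without wt line 1, 2 rose in wt. Over all omissions of 1 line, the calls over all genes were between 4855 and 6327 in het and between 2249 and 3875 in wt. With all lines they were 6963 and 4519.

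From day 2.5 to day 3, edgeR, DESeq2 and the exact test called 0 of 6 factors in wt and 0 of 7 in het, with 1 at an unadjusted p under 0.05 in each, where 19.1% (8.99% higher and 10.1% lower) and 29.8% of all genes were called. At an unadjusted p under 0.05 the shares of all genes were 33.9% and 41.4%. With the block, Sox17 (0.50, SE 0.16, adjusted p 0.0231), Foxa2 (0.59, SE 0.19, adjusted p 0.0296) and Hnf4a rose in wt, where 30.7% of all genes were called, and Gata6 fell in het (-0.42, SE 0.13, adjusted p 0.0277), where 30.9% were. The change over a step was not shown to differ between genotypes. The test of the interaction called 0 factors and 0 genes (0.0%) at each of the 3 steps with edgeR, DESeq2 called 0 factors, and Sox7 at the Wnt step was the only factor with an unadjusted p under 0.05, where 6.31%, 5.13% and 3.85% of all genes were under it at the 3 steps. With the line as a block, 0 factors were called, and 2, 4 and 1 had an unadjusted p under 0.05 at the 3 steps, against 6.74%, 5.37% and 5.76% of all genes. The steps of a genotype share the libraries of the day between them, so their values are not independent.

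Within a group, the factors went up and down together from line to line. Of the 6 factors other than Foxa1, wt line 1 had the lowest level of 5 at day 0 and day 2 and of all 6 at day 2.5 and day 3. Wt line 3 had the highest level of 6, 4, 6 and 4 factors on the same days. In het, line 1 had the lowest level of 5, 5, 1 and 6 factors, and line 2 had the highest of all 6 at day 2.5. The deviations of log2 CPM from the group mean, over the 24 libraries, correlated between 0.818 and 0.925 (Pearson's r) for the 10 pairs among Gata4, Gata6, Sox7, Sox17 and Foxa2. The highest was Gata4 with Gata6. For the 5 pairs with Hnf4a, which has the fewest counts, r was between 0.384 and 0.674. The points of these correlations are 4 days of 6 lines and share each library's depth and scaling, so no p is given.

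**Figure D3:**
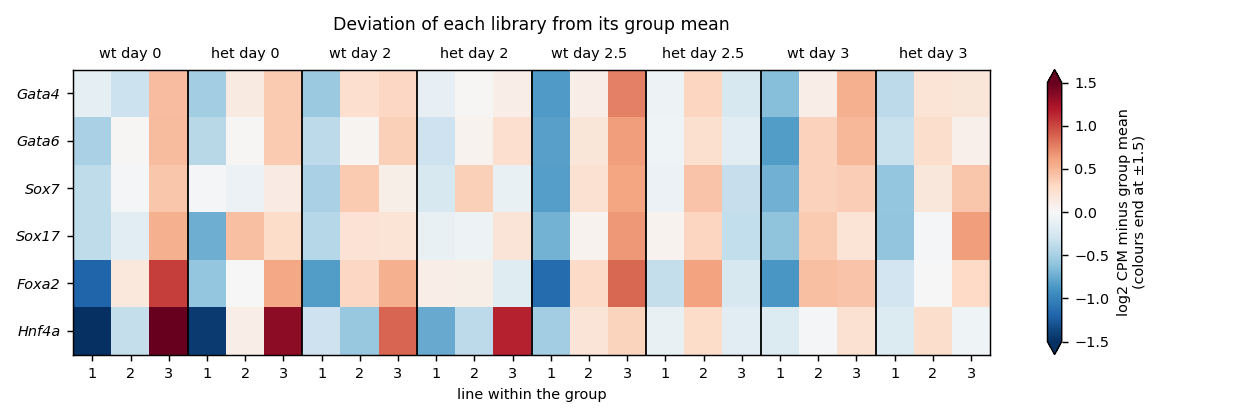
Deviation of log2 CPM from the mean of its group (colour, red above and blue below the group mean) for 6 factors in rows and the 24 libraries in columns, ordered by group and line. Whole columns share a colour, such as wt line 1 (blue) and wt line 3 (red) at day 2.5, and the 5 factors above Hnf4a correlated between 0.818 and 0.925.

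The proportions among the factors changed with the day. These were taken as counts per 100 Gata4 counts of the same library, a quantity chosen after the values were seen. Foxa2 went from 7.5 ± 2.92 per 100 before differentiation to 9.48 ± 1.59, 17.0 ± 3.08 and 21.7 ± 3.61 on days 2, 2.5 and 3 (SD over 6 lines). Its range at day 2, 7.26 to 11.4, did not meet that at day 2.5, 12.8 to 21.5. Over the same 4 days Sox17 stood at 27.0 ± 6.83, 21.4 ± 2.52, 38.1 ± 3.2 and 44.2 ± 10.5 per 100, and Hnf4a at 2.95 ± 2.98, 2.85 ± 1.68, 6.73 ± 1.04 and 8.32 ± 2.79. The Sox17 ranges of 18.2 to 25.4 at day 2 and 34.5 to 42.5 at day 2.5 were apart, and those of Hnf4a, 1.02 to 4.95 and 4.89 to 8.06, met. Sox7 was at its largest proportion before differentiation, 73.2 ± 17.3 per 100, against 46.4 ± 10.9 at day 2, with ranges that met (58.5 to 100 and 32.8 to 59.4). Gata6 was at its largest proportion at day 2, 69.8 ± 8.74 per 100, and at its smallest at day 3, 47.3 ± 5.15, with ranges of 57.1 to 81.5 and 40.0 to 54.8. Some values of the genotypes are given side by side, chosen after they were seen and with no test. Sox7 at day 2 was at 54.1 ± 6.97 per 100 in wt and 38.7 ± 8.31 in het, with ranges that met (46.2 to 59.4 and 32.8 to 48.2). Without overlap, Sox17 was at 23.2 ± 1.97 per 100 in wt and 19.6 ± 1.38 in het at day 2, Gata6 at 52.6 ± 3.86 and 65.6 ± 3.34 at day 2.5, and Hnf4a at 10.2 ± 2.79 and 6.42 ± 0.939 at day 3 (SD, n = 3). On the other days the genotypes overlapped for these 4 factors, and for Foxa2 they overlapped on every day.

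**Figure D4:**
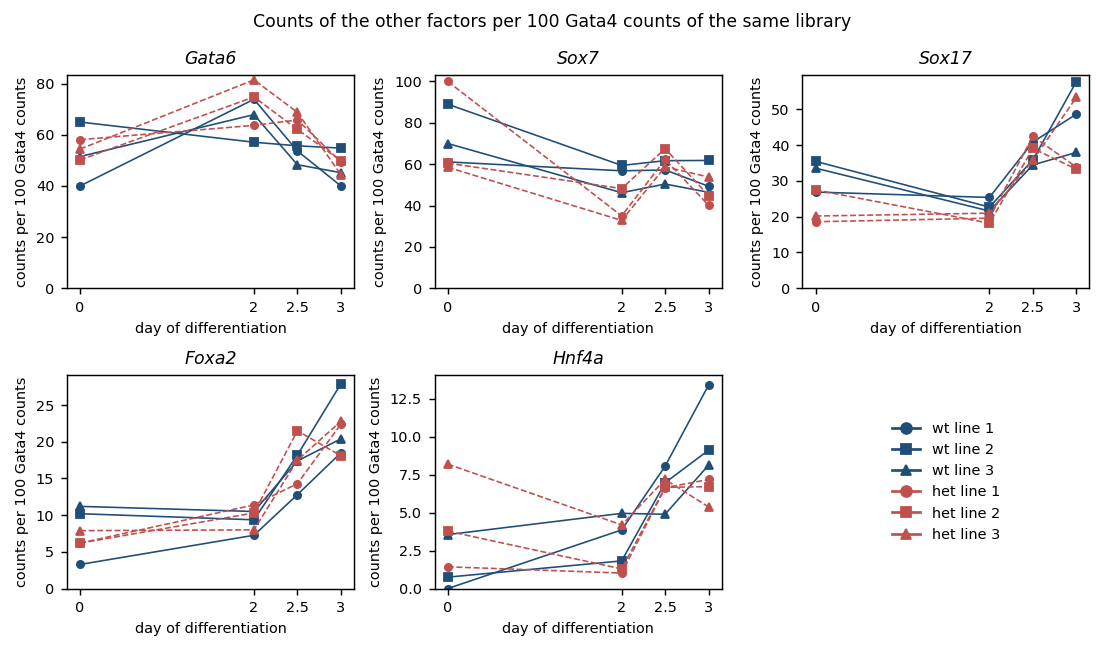
Counts of 5 factors per 100 Gata4 counts of the same library (vertical axes start at 0) against day, with 1 line per cell line, solid blue for wt and dashed red for het. Foxa2 moved from 7.26 to 11.4 per 100 at day 2 up to 12.8 to 21.5 at day 2.5 in both genotypes, and Gata6 came down to 40.0 to 54.8 at day 3.

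Further endoderm genes were measured in the same libraries. The list of extraembryonic endoderm genes holds 27 genes for matrix proteins, endocytic receptors and secreted carriers of primitive, parietal and visceral endoderm, and was put together with earlier results of these data known. At day 2, 14 of its 23 genes tested were called lower in het and none higher, where 0.5% of all genes were called lower, with 22 of the 23 values below 0 and a median of -1.01, and DESeq2 and the exact test called 10 and 17 lower. A single fit of all 24 libraries called 1. Leaving out a line gave 0 without het line 1, het line 2 or het line 3, 2 without wt line 3, 11 without wt line 2 and 18 without wt line 1, and the calls over all genes moved likewise, from 0 to 211. The 3 with the smallest adjusted p were the basement membrane genes Col4a2 (-1.05, SE 0.17, adjusted p 0.0118), Col4a1 (-1.03, SE 0.16, adjusted p 0.0118) and Nid1 (-0.87, SE 0.14, adjusted p 0.0129). On days 0, 2.5 and 3 and in the sum edgeR called 0 genes of the list, with 15, 6, 13 and 21 at an unadjusted p under 0.05, against 10.9%, 5.27%, 9.13% and 9.05% of all genes. DESeq2 called 5, 1, 3 and 4 lower there, and the exact test 5, 1 and 4 on the 3 days. Without wt line 1 edgeR called 9, 0, 7 and 18 lower, without the filter 14, 10, 11 and 15, and with the line number as a block 8, 0, 10 and 8. From day 0 to day 2, 17 of 24 genes of the list rose in wt and 17 of 23 in het, against 22.4% and 28.0% of all genes, among them Cubn, an endocytic receptor (1.80 in wt, SE 0.19, adjusted p 4.14e-06), and Lamb1, a laminin chain (1.78 in het, SE 0.10, adjusted p 1.26e-09). At day 2.5 against day 2, 9 of 24 rose and 1 fell in het, and 3 rose and 2 fell in wt, where 21.8% and 14.6% of all genes rose and 22.9% and 14.5% fell. The summed level of the list at day 2 was between 10500 and 20600 CPM in wt and between 6810 and 9110 CPM in het. Of the 27 genes, 3 were under 1 CPM on average in every group, the carriers Afp, Ttr and Apoa1, with at most 12, 22 and 13 counts in any library. Apoe, another carrier, had 2043 to 11547 counts a library, and the endocytic receptor Lrp2 2378 to 11149.

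Of 14 genes of the anterior primitive streak, definitive endoderm and node, 6 were under 1 CPM on average in all 8 groups, and the other 8 were detected. The 6 were Gsc, Hhex, Shh, Cer1, Noto and Lhx1, with at most 4, 4, 5, 7, 13 and 19 counts in any library. Those with the highest levels were Trh, with 211 to 5575 counts a library, Otx2 with 20 to 1588 and Nodal, a ligand that patterns the streak, with 90 to 1036, and the streak genes Mixl1 and Eomes reached 39.6 and 18.3 CPM. Mixl1 rose from 0.123 CPM to 20.8 CPM in wt and from 0.351 to 29.2 CPM in het at day 2.5, and stood at 8.0 and 8.44 CPM at day 3. In het against wt, 0 of 7 genes tested of this list were called by edgeR at day 2, with 2 at an unadjusted p under 0.05, 0 were called by DESeq2 and the exact test, and the median was -0.01. At day 3, 6 of 8 genes tested were higher in het with a median of 0.32. There edgeR called 0, and DESeq2 and the exact test called 1 higher each, among the genes in all given above for these tools. In the summed counts without wt line 1, edgeR called 2 higher, among 404 genes in all. The summed level of the list was between 97.5 and 127 CPM in wt and between 114 and 128 CPM in het at day 2. At day 0, before differentiation, it was already between 210 and 220 CPM in wt and between 194 and 235 CPM in het. The sum is thus not a measure of streak or definitive endoderm cells alone.

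**Figure D5:**
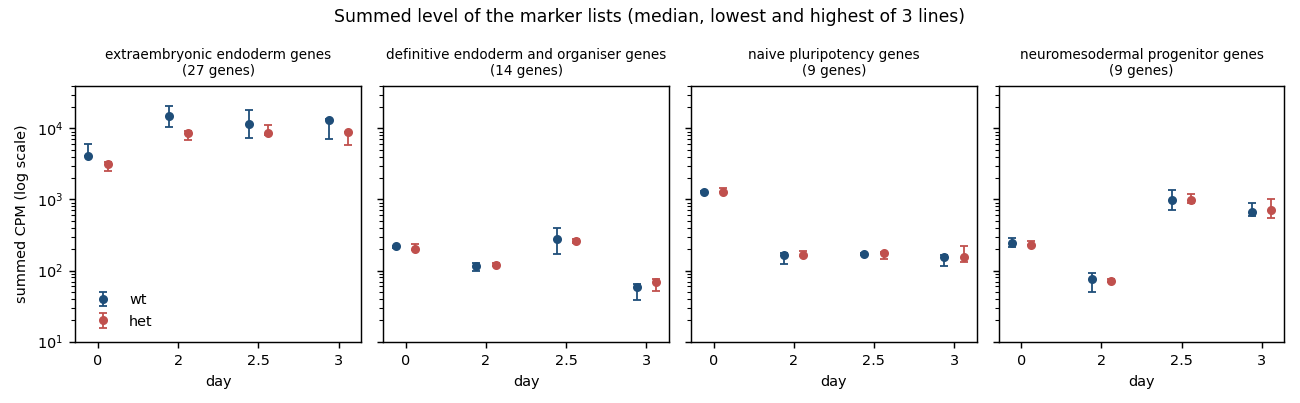
Summed CPM of 4 marker lists (log scale) by day, with points for the median and bars from the lowest to the highest of 3 lines, blue for wt and red for het. At day 2 the extraembryonic endoderm bars are apart, with 10500 to 20600 CPM in wt and 6810 to 9110 CPM in het, and the bars of the other 3 lists shown overlap.

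The factors were also set against the summed level of the extraembryonic endoderm list, a quantity chosen after the values were seen. Since the list was itself lower in het at day 2, dividing by it raises the het share of every factor, and the scale serves only to set the factors side by side. Per 1000 CPM of the list, Gata4 was at 4.37 ± 0.664 CPM in wt and 3.95 ± 0.384 CPM in the het lines on that day. Gata6 stood at 2.86 ± 0.229 and 2.88 ± 0.302, and Foxa2 at 0.395 ± 0.0896 and 0.392 ± 0.0912 (SD, n = 3). Sox7 stood at 2.39 ± 0.631 and 1.51 ± 0.209, and Sox17 was at 1.01 ± 0.168 and 0.774 ± 0.110 and Hnf4a at 0.148 ± 0.0497 and 0.0852 ± 0.0698. At day 2.5 the het means of the 6 factors were between 91.2% and 114% of wt on this scale. At day 0 they were between 62.0% and 301%, the highest being that of Hnf4a with its few counts, and at day 3 between 60.7% and 98.7%. Sox17 at day 0, Sox7 at day 2 and Hnf4a at day 3 were lower in het without overlap on this scale. The list and the factors were measured in the same libraries, and the part of the list's level in the differences of the factors was not tested.

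Other cell types that use these factors were looked for in the same way. The cardiac mesoderm list, for cells that use Gata4 and Gata6, had a summed level of 1.30 to 4.28 CPM over all libraries, with 5 of 7 genes under 1 CPM on average in every group, and no gene called at day 2 in het against wt (0 of 3 tested, with 0 at an unadjusted p under 0.05). The endothelial list, for cells that use Sox7 and Sox17, was at 43.8 to 104 CPM over all libraries, and at 82.7 to 97.1 CPM in the wt lines and 75.2 to 78.2 CPM in the het lines at day 2. On that day 1 of 6 genes was called lower in het, the adherens junction gene Cdh5 (-0.89, SE 0.16, adjusted p 0.0192), at 31.1 ± 3.94 CPM in wt and 16.8 ± 1.70 CPM in het, and it was not called once wt line 3, or any 1 of the het lines, was left out. The endothelial regulators Etv2 and Tal1 had at most 93 and 30 counts in any library. The 8 trophoblast genes summed to 57.1 to 139 CPM over all libraries, and to 70.8 to 88.2 CPM in the wt lines and 57.7 to 65.4 CPM in the het lines at day 2, where 1 of 6 tested was called lower in het. This was Tpbpa (25.5 ± 7.61 CPM in wt, 9.64 ± 2.80 in het, adjusted p 0.0172), a marker of the placental spongiotrophoblast, which was not called once any 1 of the het lines was left out. A single fit of all 24 libraries called 0 genes of the trophoblast and endothelial lists on that day. The 6 fibroblast genes, which would mark feeder cells, summed to 16.8 to 19.2 CPM at day 2 in both genotypes, with 0 called by edgeR and 1 at an unadjusted p under 0.05. The naive pluripotency and NMP lists had 0 genes called in het against wt at day 2, with 3 of 9 and 0 of 6 tested at an unadjusted p under 0.05. For the cardiac, fibroblast, naive pluripotency and NMP lists DESeq2 and the exact test called 0 on that day too. The summed levels of the trophoblast and endothelial lists were thus lower in het without overlap at day 2, as was that of the extraembryonic endoderm list. Of single genes, 8.19% were lower in het without overlap on that day. The endothelial medians were 84.7 CPM in wt and 77.3 CPM in het, a smaller gap than that of Cdh5 alone, and 2 of the 6 endothelial genes were higher in het. In the trophoblast list 1 of 6 genes tested was higher in het. At day 0 the endothelial list was higher in het without overlap, with 80.2 to 85.8 CPM in wt and 96.2 to 104 CPM in het. The part of any of these lists in the levels of the factors was not tested.

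A list of 9 relatives of the members was measured in the same way. The blood and trophoblast factors Gata1 and Gata2 were among them, with Gata1 lower at day 2 than at day 0 in wt (-2.34, SE 0.68, adjusted p 0.0122) and both lower in het. Of the relatives, 2 were under 1 CPM on average in every group, Gata5 with at most 9 counts and Hnf4g with 0 counts in all libraries. In het against wt at day 2, 0 of 7 relatives tested were called by edgeR, with 1 at an unadjusted p under 0.05 and a median of -0.51, and 0 by DESeq2 and the exact test. Their summed level on that day was 19.4 to 22.3 CPM in wt and 10.8 to 17.0 CPM in het, without overlap.

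For each of the 6 factors with enough counts, the 3 genes whose deviations from the group means were most like its own were found among 14430 others, over the 24 libraries. For Gata4 these were Pla2g12b, Pth1r and Lrp2 (r = 0.954, 0.952 and 0.952), for Gata6 Prkaa2, Loxl2 and Lama1 (0.954, 0.953 and 0.949), and for Sox7 Adamts9, Dpp4 and Podxl (0.948, 0.936 and 0.923). For Sox17 they were Dab2, Cubn and Srgn (0.920, 0.912 and 0.911), for Foxa2 Loxl2, Pdgfra and Flrt3 (0.963, 0.957 and 0.923), and for Hnf4a Copz2, Tor4a and Prrg2 (0.834, 0.829 and 0.825). Of these 17 different genes, 6 were on the extraembryonic endoderm list of 27 genes, which was put together with earlier results of these data known. By the levels themselves, which hold the changes over days, the gene most like Gata4 was Hs3st1 (r = 0.971), that most like Gata6 was Lama1 (0.973), and that most like Foxa2 was Pdgfra (0.982). The gene most like Sox7 was Nostrin (0.922), that most like Sox17 was Col27a1 (0.957), and that most like Hnf4a was Fut8 (0.902), and of the 17 different genes among the first 3 of each factor, 3 were on the list (Lama1, Pdgfra and Sparc).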

How the data were processed

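The authors trimmed single-end reads with Trim Galore 0.4.4, aligned them with HISAT2 2.0.5 to GRCm38.p6 and quantified genes in SeqMonk (the versions given are from the submitters' processing notes). The deposited table holds raw counts per gene for 24 libraries. Its 8 columns of group means were not used, 0 columns were left unmatched, and deposited log2 tables of 39 Hox genes and 34 factors were not used here. Members, lists and tests were chosen with earlier results of these data known.

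In R 4.3.3, genes were filtered with filterByExpr, scaled by TMM and compared by the edgeR 4.0.16 quasi-likelihood test, with a threshold of 0.05 on p-values adjusted over all genes tested (Benjamini-Hochberg). The SE is the log2 fold change divided by the root of F. CPM on a log scale used a prior count of 2 for correlations and a pseudocount of 0.1 CPM for exact permutation tests, which were two-sided. A floor of 3 counts, before composition factors, is 0.144 to 0.422 CPM, and such floors cover counting error only. The replicate is the line. Line numbers pair the days of a genotype, since the titles give the same line, and the deviations of a line on neighbouring days correlated between -0.076 and 0.362 over 14431 genes. Between genotypes they name different lines. Cells were lysed in the wells at harvest, so the days of a line were separate wells, and whether these belonged to 1 differentiation run is not given in the sources used here.

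Named genes were the members, Smchd1, the 3 genes most like each member with a mean of at least 20 counts (among genes of at least 1 CPM), and up to 3 genes per list and comparison with the smallest adjusted p past the threshold. Other names were chosen after their values were seen, and 1 named gene is not reported here. Ratios per 100 Gata4 counts and per 1000 CPM of a list were added after the values were seen. Alternatives were DESeq2 1.42.0, its size factors, library totals, the edgeR exact test, no filter beyond 1 count, 1 fit of 24 libraries, the line as a block and leaving out each line. Scripts were tested on simulated data. Of the identifiers, 35545 were in GENCODE vM21, 99.6% of them at the same coordinates, and promoters came from RefSeq. Figures used Python 3.11.15 and matplotlib 3.10.9.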

Additional observations from a re-analysis of the deposited data

How the results depend on the processing

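The log2 fold changes of the factors kept their direction under DESeq2 and its size factors, without composition factors, without the filter on low counts, under the exact test and in a single fit of 24 libraries. With het against wt, the number of factors called moved as follows. No filter beyond 1 count gave 4 at day 0, 1 at day 2.5, 4 at day 3 and 3 in the summed counts. DESeq2 gave 1 at day 0 and 1 at day 3, as did the exact test, and a single fit of 24 libraries gave 1 at day 2. The line number as a replicate block, which between genotypes is only a shared number, gave 1 at day 3 and 2 in the summed counts. Leaving out each line in turn gave 0 to 2 at day 0, 0 to 4 at day 2, 0 to 2 at day 3 and 0 to 5 in the summed counts, with the highest values at day 0, day 3 and in the sum without wt line 1. For the steps, no filter gave 6 in wt from day 0 to day 2, 2 in wt from day 2 to day 2.5, 2 in het from day 2.5 to day 3 and 1 for the interaction at the Wnt step. The replicate block gave 6, 2 and 3 in wt over the 3 steps and 1 in het from day 2.5 to day 3. Leaving out lines gave 2 to 4 in wt and 2 to 3 in het from day 0 to day 2, and 0 to 2 in wt and 3 to 6 in het from day 2 to day 2.5, with 2 without wt line 1 and 3 without het line 1. The block changed no other count of factors by over 1.5 times. The cause of these differences was not tested.

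Some log2 values changed sign. Gata4 at the Wnt step in wt was -0.02 with the block. Leaving out each line gave, for het against wt, -0.30 to 3.18 for Hnf4a at day 0, and -0.57 to 0.15 for Gata6 and -0.90 to 0.09 for Foxa2 at day 2.5. In wt from day 2 to day 2.5 it gave -0.25 to 0.19 for Gata4 and -0.22 to 0.25 for Sox7, and from day 2.5 to day 3 it gave -0.14 to 0.10 for Gata6 and -0.09 to 0.19 for Sox7. In het it gave -0.20 to 0.19 for Sox7 from day 0 to day 2, and -0.15 to 0.16 for Gata4, -0.43 to 0.36 for Sox17 and -0.05 to 0.63 for Foxa2 from day 2.5 to day 3. For the interactions it gave -0.20 to 0.31 for Sox17 and -0.25 to 0.57 for Foxa2 at the first step, and -0.25 to 0.09 for Gata4, -1.18 to 1.78 for Foxa1 and -0.63 to 0.14 for Foxa2 at the last.

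Over all genes, het against wt at day 0, 2, 2.5, 3 and in the sum called 369, 384, 87, 274 and 190 without the filter and 82, 233, 3, 116 and 145 with DESeq2. The exact test called 48, 249, 11 and 129 on the 4 days, a single fit 1, 23, 1 and 15, and the block 25 at day 0, 100 at day 3 and 50 in the sum, besides 4687 at the last step in wt. The interactions gave 58, 33 and 23 without the filter, and 10 with DESeq2 and 2 with the block at the first step. Leaving out lines gave 0 to 68, 0 to 211, 0 to 3, 0 to 93 and 0 to 404 for het against wt in the same order, 4152 to 6363, 2249 to 3875 and 29 to 3098 over the steps in wt, and 6877 to 7757, 4855 to 6327 and 2386 to 3032 in het. The exact test was not run for the summed counts and the interactions, nor the single fit for the summed counts. At day 0 Foxa1 had 0 to 8 counts and Hnf4a 0 to 28 counts a library.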
